A study of Rattus norvegicus with 6 samples.

Results

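The miR-30 family was examined in small RNA libraries of AR42J, a rat line derived from the exocrine pancreas. Its members were taken by name from the deposited precursor alignments as every reference called rno-mir-30a, rno-mir-30b, rno-mir-30c, rno-mir-30d or rno-mir-30e, copies included. This gave 6 of 383 precursors, with mir-30c present as the copies mir-30c-1 and mir-30c-2. Over the 6 libraries they took 441740 of 20610833 miRNA reads and 2729 of 53526 distinct read sequences. Reads that fit several members equally were kept in groups of their own, which made 20 of 763 features in all. Untreated cells gave 3 libraries. The other 3 were made from cells exposed for 30 min to sodium taurocholate at 200 µM, a bile salt whose contact with acinar cells serves as a model of pancreatitis. All cells were of the same line and culture medium, and no other agent or genotype is labelled. The comparison asks whether the family's levels, arms or read ends differ after this short exposure. The labels do not name separate cultures behind the replicates, so each p-value refers to the spread among these libraries alone, and that spread may be technical.

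A miRNA gene is transcribed as a long primary RNA, from which Drosha frees a hairpin and Dicer then cuts a short duplex. The strand from the 5′ side of the hairpin is called 5p and that from the 3′ side 3p, and usually one of them is kept by an Argonaute protein while the other is degraded. Bases 2 to 8 from the 5′ end, the seed, pair with target mRNAs, so a shift of the 5′ end changes the targets while a shift of the 3′ end leaves the seed as it is. The miR-30 family is widespread in epithelia and is known for roles in epithelial differentiation, autophagy and pancreatic islet cells.

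The mature sequences below are those of RefSeq for the rat assembly GRCr8, whose table held 6 mature entries of the family on 4 hairpins. They are shown because all 5p arms listed carry one seed and the 3p arms carry others. Capitals mark the seed.

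miR-30a-5p: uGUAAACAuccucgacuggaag

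miR-30c-5p: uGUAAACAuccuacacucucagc

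miR-30e-5p: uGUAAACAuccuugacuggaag

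miR-30a-3p: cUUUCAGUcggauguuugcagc

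miR-30c-1-3p: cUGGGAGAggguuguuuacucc

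miR-30c-2-3p: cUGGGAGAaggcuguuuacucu

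In that assembly miR-30a-5p lies at chr9:33233946-33233967 and miR-30a-3p at chr9:33233987-33234008, both on the plus strand. The copies of miR-30c-5p lie at chr5:139634505-139634527 on the minus strand and at chr9:33253695-33253717 on the plus strand, and miR-30e-5p lies at chr5:139637504-139637525 on the minus strand. miR-30c-1-3p is at chr5:139634467-139634488 and miR-30c-2-3p at chr9:33253735-33253756. The hairpins of mir-30c-1 and mir-30e are 2906 bases apart within the span of the protein-coding gene Nfyc, a subunit of the NF-Y transcription factor. Those of mir-30a and mir-30c-2 are 19670 bases apart. The mir-30c-2 hairpin lies within the spans of the pseudogene Rbx1-ps1 and of the long non-coding RNA LOC134480562, and the table gave no gene that spans mir-30a. The table does not say whether these places are exonic or intronic. The one other rat entry with the seed GUAAACA was miR-384-5p, whose precursor had 4 reads over all libraries and was not tested.

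The family took 2.02%, 2.57% and 2.22% of miRNA reads in untreated libraries 1 to 3 and 2.21%, 1.74% and 2.09% in taurocholate libraries 1 to 3, so the groups overlapped. Its reads ranged from 61910 to 102380 per library, of 2791878 to 3987307 miRNA reads. The markers of the labelled cell type were uneven. miR-148a, abundant in acinar cells, stood at 284171 to 421894 CPM, reads scaled to an equal total of miRNA reads in each library, but miR-216a, miR-216b and miR-217, also known as acinar miRNAs, reached at most 1.10. The endocrine pair miR-375 and miR-7a summed to 54968 to 59673 CPM in untreated and 41206 to 54718 in taurocholate libraries, nearly all of it miR-7a. The 3 taurocholate libraries were thus all under the lowest untreated library, by a narrow margin, as were those of 7.94% of all single arms tested. Among markers of other cells, the 4 blood miRNAs summed to 961 to 2093 and 861 to 1586 CPM, the 6 of muscle and stroma to 12349 to 14127 and 10134 to 13842, and miR-122 of liver to 18.6 to 26.7 and 6.88 to 23.9. The pair of brain, nearly all miR-9a, summed to 10282 to 12505 and 12586 to 23589. This puts every taurocholate library above every untreated one, also by a narrow margin, as in 5.82% of all single arms tested. The part of these in the results below was not tested.

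miR-30d-5p was the leading member and the 3p arms were minor in every library. Levels are given as CPM after TMM scaling, a factor that evens out differences in composition between libraries (scaled CPM). miR-30d-5p stood at 11866, 13206 and 10242 in untreated libraries 1 to 3 and at 9617, 12832 and 10143 in taurocholate libraries 1 to 3. miR-30e-5p followed at 5092, 6058 and 5093 against 4528, 3544 and 3825. miR-30a-5p stood at 2340, 2538 and 2109 against 2141, 1834 and 1810. miR-30d-5p lay above miR-30e-5p, and miR-30e-5p above miR-30a-5p, in every library. miR-30c-5p, which both copies of its gene make, stood at 1942, 2073 and 2147 against 1840, 1786 and 1985. miR-30b-5p was the rarest 5p arm, at 524, 498 and 619 against 479, 312 and 458. The levels of miR-30a-5p and miR-30c-5p overlapped within each group, while miR-30b-5p lay far below both.

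Among the 3p arms, miR-30e-3p was by far the most abundant, at 450, 379 and 404 scaled CPM in untreated and 387, 598 and 489 in taurocholate libraries. That range overlaps miR-30b-5p in the taurocholate group but not in the untreated one. miR-30a-3p followed at 83.3 ± 9.38 and 83.9 ± 10.3 (SD, n = 3 each). miR-30b-3p was at 40.7 ± 7.0 and 49.4 ± 3.55, and miR-30d-3p at 40.1 ± 7.53 and 39.5 ± 4.80, which do not differ beyond their spread in the untreated group. The 3p arms of the miR-30c copies were the rarest, miR-30c-1-3p at 16.3 ± 3.35 and 18.9 ± 4.27 and miR-30c-2-3p at 17.03 ± 2.93 and 15.2 ± 2.76, and could not be ordered. The plot of levels by library shows this order over about 3 orders of magnitude.

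**Figure D1:**
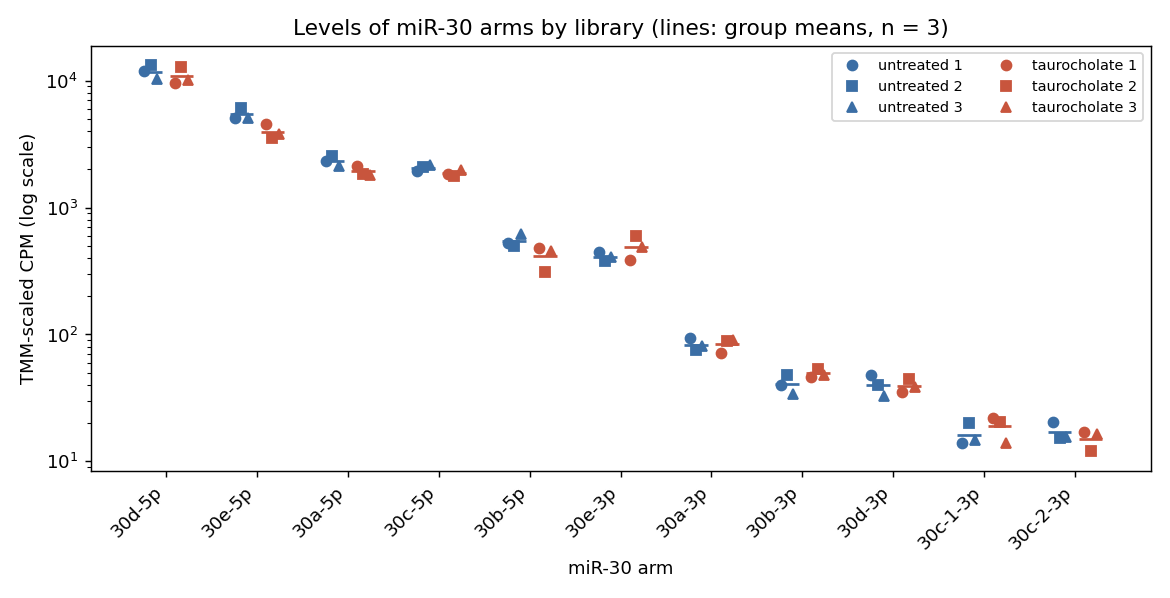
Levels of the 11 miR-30 arms (horizontal axis) as TMM-scaled CPM on a log axis; each point is 1 library, blue untreated and red taurocholate, and lines are group means of 3 libraries. miR-30d-5p leads and the miR-30c 3p arms are lowest in both groups, and for most arms the red and blue points overlap.

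No miR-30 arm passed the test between the groups. The edgeR quasi-likelihood test, with p-values adjusted over all 378 arms tested, called 0 arms of any miRNA, while 64 reached an unadjusted p under 0.05, 28 of them higher with taurocholate. The DESeq2 Wald test called 12 arms (3.17%), 0 of them miR-30. Of the 17 miR-30 features tested, 2 had an unadjusted p under 0.05 and both were lower, against 9.52% of all arms. The 5 main 5p arms were all lower, and the median of their log2 fold changes was -0.27. With 4 groups of shared reads and the reads of mir-30c-1 alone, nearly all of which lie upstream of its 5p arm, the features on the 5p side were lower in 8 of 10, with a median of -0.23, and the 3p features were higher in 4 of 7, with a median of 0.01. The median of all arms was -0.01. The smallest p of the family was that of miR-30e-5p, with a log2 fold change of -0.45 (SE 0.13, edgeR p 0.0112, adjusted p 0.194). In scaled CPM its 3 taurocholate libraries all lay below its 3 untreated ones, as did those of 14.8% of all arms. On library totals alone they overlapped, at 4550, 6205 and 5413 against 5195, 2896 and 4195 CPM. Its log2 fold change was -0.26 without untreated replicate 2.

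The other abundant 5p arms had smaller differences. For miR-30b-5p the log2 fold change was -0.39 (SE 0.19, edgeR adjusted p 0.373), and -0.19 without taurocholate replicate 2. Its groups were apart in scaled CPM but overlapped on library totals. miR-30a-5p was at -0.27 (SE 0.12, edgeR adjusted p 0.306), and at -0.10 and -0.12 without untreated replicate 2 or taurocholate replicate 3. miR-30c-5p was at -0.14 (SE 0.09, edgeR adjusted p 0.504), at -0.03 without untreated replicate 2 and at -0.0019 with no filter on low counts. miR-30d-5p was at -0.12 (SE 0.15, edgeR adjusted p 0.703), and its sign turned without untreated replicate 2 (0.10) or taurocholate replicate 3 (0.04). Within the pairs of libraries with the same number, miR-30e-5p and these 4 arms were lower with taurocholate in each pair in scaled CPM, as were 25.1% of all arms, but on library totals 0 of the 5 were, against 17.7% of all arms. miR-30e-3p, the partner of miR-30e-5p, had a positive log2 fold change of 0.26 (SE 0.18, edgeR adjusted p 0.505), from 0.13 without taurocholate replicate 2 to 0.40 without taurocholate replicate 1. Its groups overlapped in scaled CPM but were apart on library totals, at 402, 388 and 430 against 444, 488 and 537, which 5.82% of all arms also showed in that direction. Log2 fold changes of the other 3p arms were 0.28 for miR-30b-3p, 0.21 for miR-30c-1-3p, 0.01 for miR-30a-3p, -0.02 for miR-30d-3p and -0.16 for miR-30c-2-3p. That of miR-30b-3p ranged from 0.17 without untreated replicate 3 to 0.53 without untreated replicate 2, and that of miR-30c-1-3p from 0.08 without taurocholate replicate 1 to 0.50 without untreated replicate 2. In bulk samples, fewer cells making a miRNA and less of it per cell cannot be told apart.

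Reads shared by members were few, 0.492% ± 0.0869 of family reads untreated and 0.448% ± 0.0411 with taurocholate. The other member of the family at an unadjusted p under 0.05 was the group of reads that fit miR-30a-5p and miR-30e-5p equally, with 43, 43 and 39 reads untreated and 36, 21 and 32 with taurocholate. Its libraries were apart on both scales, which 7.94% of all arms showed in that direction on library totals. Its log2 fold change was -0.69 (SE 0.24, edgeR p 0.0250, adjusted p 0.242). The reads shared by miR-30a-5p and miR-30d-5p were at -0.48 (SE 0.21, edgeR p 0.0559, adjusted p 0.306), and their libraries were also apart on both scales. Those shared by miR-30d-5p and miR-30e-5p were at -0.18, those shared by miR-30a-3p and miR-30e-3p at -0.35 and those shared by miR-30b-5p and miR-30c-5p at 0.60. The last group (SE 0.35, edgeR adjusted p 0.460) had only 12, 17 and 19 reads untreated and 30, 15 and 39 with taurocholate, which overlapped. The value of miR-30a-3p and miR-30e-3p ranged from -0.63 without taurocholate replicate 2 to -0.11 without taurocholate replicate 3. In 4 of these 5 groups the most abundant sequence carried 1 internal mismatch. The 3 features not tested held 54 reads in all.

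As a share of the family's 5p reads, miR-30d made up 52.9% ± 2.13 untreated and 56.6% ± 5.82 with taurocholate (SD, n = 3 each). miR-30e made up 24.4% ± 0.958 and 20.9% ± 3.43, miR-30a 10.49% ± 0.186 and 10.1% ± 1.25, miR-30c 9.37% ± 1.11 and 9.89% ± 1.05, and miR-30b 2.50% ± 0.515 and 2.20% ± 0.578. All of these overlapped between the groups. The composition of taurocholate library 2 stood out, with 63.0% miR-30d and 17.4% miR-30e, while library 1 of that group, at 51.5% and 24.3%, was within the untreated range for both.

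The arms outside the family that followed the summed miR-30 5p level most closely over the 6 libraries, among arms of at least 100 CPM, were miR-146b-5p (Pearson r 0.99), miR-423-5p (0.98) and let-7f-5p (0.92), given as a description, since all points share the same libraries, depths and scaling factors. The summed level was 21853, 24457 and 20291 scaled CPM untreated and 18669, 20378 and 18297 with taurocholate, led by miR-30d-5p.

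Other miRNAs of the tissue were counted from 2 lists. Of 11 tested arms of miRNAs known in the exocrine and endocrine pancreas, 4 were higher and 7 lower, and the median log2 fold change was -0.12; 4 had an unadjusted p under 0.05 and 0 were called by edgeR. Of 12 tested arms of epithelial miRNAs, the miR-200 and miR-192 families among them, 12 were higher with a median of 0.63; 0 had an unadjusted p under 0.05 and 0 were called. Of all 378 arms, 185 were higher, 193 lower and 64 at an unadjusted p under 0.05, with a median of -0.01. The 5 miR-30 5p arms, shared reads left out, had a median of -0.27.

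The balance of the arms differed widely between members, and in all 5 the share of 3p reads was on average higher with taurocholate. In rno-mir-30e, 3p reads were 8.12%, 5.88% and 7.36% of the reads of both arms in untreated libraries and 7.87%, 14.4% and 11.3% in taurocholate libraries. In rno-mir-30b they were 7.11%, 8.79% and 5.21% against 8.88%, 14.6% and 9.52%. Taurocholate library 2 was the highest for both, and taurocholate library 1 lay within the untreated range for miR-30e and just above it for miR-30b. In rno-mir-30a the share was 3.48% ± 0.517 and 4.22% ± 0.836, and in rno-mir-30c, both copies together, 1.59% ± 0.180 and 1.78% ± 0.280. rno-mir-30d was almost wholly 5p, with 0.340% ± 0.0533 and 0.364% ± 0.0162 of 3p reads (SD, n = 3 each). The 95% Wilson intervals of the single shares had half-widths from 4.18% of the value (miR-30e, taurocholate 3) to 20.6% of it (miR-30c, untreated 3), and cover counting error only.

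**Figure D2:**
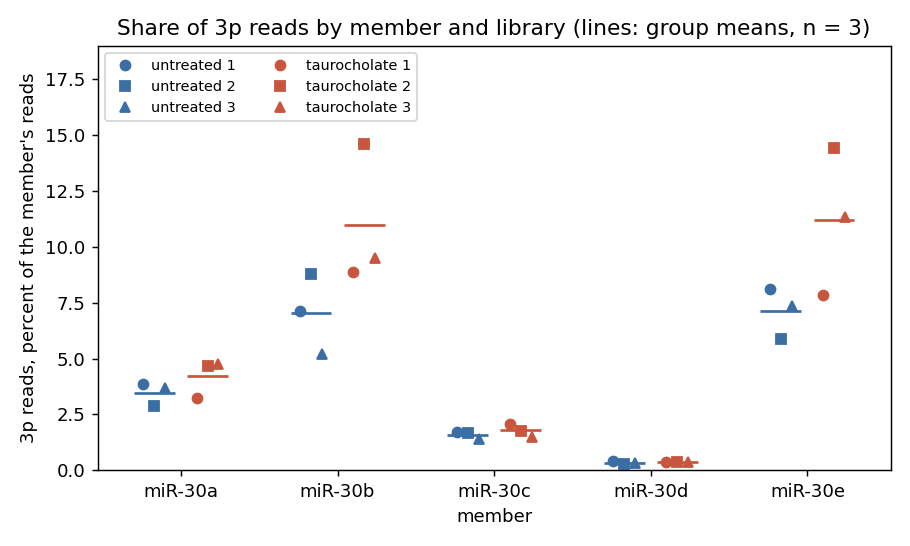
Share of 3p reads among the reads of both arms (vertical axis, percent, from 0) for the 5 members; each point is 1 library, blue untreated and red taurocholate, and lines are group means of 3 libraries. For miR-30b and miR-30e taurocholate library 2 is highest, at 14.6% and 14.4%, while miR-30c and miR-30d show little 3p in any library.

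None of these shifts passed the test. On the log2 ratio of 3p to 5p reads, limma fitted over 129 precursors called 0. An unadjusted p under 0.05 was reached by 16, 9 of them higher (6.98%). miR-30e had a difference of 0.69 (SE 0.29, limma p 0.0411, adjusted p 0.362, two-sided exact permutation p 0.2). Without taurocholate replicate 1 it was 0.95 and without taurocholate replicate 2 it was 0.46. miR-30b had a difference of 0.70 (SE 0.35, limma adjusted p 0.385) and was 0.45 without taurocholate replicate 2. All its taurocholate ratios lay above the untreated ones, as in 10.1% of all precursors. Its exact permutation p was 0.1, the smallest that 3 against 3 libraries allow. The differences were 0.28 in miR-30a, 0.16 in miR-30c and 0.11 in miR-30d, with exact permutation p of 0.3, 0.4 and 0.5. Leaving out 1 library they ranged from 0.15 to 0.46 in miR-30a (lowest without untreated replicate 2), from 0.05 to 0.28 in miR-30c (lowest without taurocholate replicate 1) and from 0.02 to 0.23 in miR-30d (lowest without untreated replicate 2). All 5 were positive, with a median of 0.28, where 58 of all 129 precursors were positive and their median was -0.08. Leaving out any 1 library or using error-free reads left all 5 positive.

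The 5′ ends of the 5p arms were nearly invariant. The start with most reads was the annotated start in all 6 arms that have a RefSeq entry. Its share of miR-30a-5p reads was 99.2% ± 0.0607 untreated and 99.1% ± 0.163 with taurocholate (SD, n = 3 each), and it held 98.7% ± 0.0793 and 98.6% ± 0.0540 of miR-30e-5p reads. In miR-30b-5p it held 99.9% ± 0.0499 and 99.7% ± 0.200. In miR-30c-5p and miR-30d-5p it held over 99.8% in each library. The one other 5p start of at least 1% was that of miR-30e-5p 1 base downstream, with 1.17% ± 0.106 and 1.16% ± 0.0895. Over 190 arms of all miRNAs the median share of the main start was 99.1%, with quartiles of 94.3% and 99.8%.

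The 3p arms of miR-30a and miR-30e started at more than a single place, and in both the other start lay 1 base downstream. The main start of miR-30a-3p held 65.4%, 55.2% and 60% in untreated and 64.5%, 66.4% and 59.9% in taurocholate libraries, the eighth lowest mean of 190 arms. The start 1 base downstream held 34.6%, 44.5% and 40% against 35.1%, 32.9% and 40.1%. In miR-30e-3p the main start held 92.3% ± 0.825 and 91.8% ± 0.969, and the next base 6.32% ± 0.889 and 6.39% ± 0.777. The most abundant error-free read of each miR-30a-3p start is shown, with bases 2 to 8 in capitals, to show how the second start moves that window by 1 base.

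miR-30a-3p read at the main start: cTTTCAGTcggatgtttgcagc

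miR-30a-3p read 1 base downstream: tTTCAGTCggatgtttgcagc

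The first had 214 reads and the other 130 over all libraries, 12.5% and 7.57% of the arm. No start passed the test between the groups. On the log2 odds of the main start, limma called 0 of 190 arms, with 11 at an unadjusted p under 0.05, and of the 8 miR-30 arms tested 0 were under 0.05, where 2.11% of all arms were so with a higher and 3.68% with a lower share. The smallest was miR-30b-5p (limma p 0.0508, adjusted p 0.656, exact permutation p 0.2), with 99.9%, 99.9% and 99.9% against 99.8%, 99.9% and 99.5% of reads at the main start. Its odds rest on very few reads, as 9917 of its 9936 reads over all libraries were at the main start. The same limit holds for miR-30c-5p, with 40643 of 40662.

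The 3′ ends of miR-30a-5p and miR-30e-5p mostly lay past the annotated end. The reads below are the most abundant error-free ones of 3 arms, shown because their lengths carry the comparison that follows. Capitals mark bases past the annotated 3′ end, all of them as in the precursor.

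miR-30a-5p, 24 nt: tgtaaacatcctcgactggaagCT

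miR-30a-5p, 23 nt: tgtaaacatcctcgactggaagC

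miR-30a-5p, 22 nt: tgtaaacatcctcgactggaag

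miR-30e-5p, 24 nt: tgtaaacatccttgactggaagCT

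miR-30e-5p, 22 nt: tgtaaacatccttgactggaag

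miR-30c-5p, 23 nt: tgtaaacatcctacactctcagc

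miR-30c-5p, 24 nt: tgtaaacatcctacactctcagcT

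The annotated 22-nt form held 5.03% of miR-30a-5p reads and 2.08% of miR-30e-5p reads, while the form 2 bases longer held 36.9% and 51.6%. In miR-30c-5p the annotated 23-nt form led with 28.0% and the form 1 base longer held 19.7%. Counting all reads at the main start, mismatched ones included, 24 nt was the most frequent length of miR-30a-5p and miR-30e-5p in each library, 23 nt of miR-30c-5p, and 22 nt of miR-30b-5p and both 3p arms measured. In miR-30d-5p it was 24 nt in the 3 untreated libraries and taurocholate library 1, but 23 nt in taurocholate libraries 2 and 3, where 48.3% and 42.5% of reads had that length.

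Reads of miR-30a-5p, miR-30c-5p and miR-30d-5p were on average shorter with taurocholate, and fewer of them were 24 nt long. Of miR-30a-5p reads, 69.3%, 61.4% and 62.2% were 24 nt long in untreated and 59.9%, 53.0% and 54.0% in taurocholate libraries. Of miR-30c-5p reads, 39.2%, 34.8% and 37.0% were 24 nt long against 29.9%, 23.7% and 27.2%, and 51.9%, 56.4% and 54.1% were 23 nt long against 59.3%, 65.8% and 63.8%. Of miR-30d-5p reads, 55.9%, 50.5% and 50.4% were 24 nt long against 49.5%, 35.6% and 41.0%. For these 3 arms the taurocholate libraries were all below the untreated ones at 24 nt, with an exact permutation p of 0.1. The same held for 18 (41.9%) of the 43 arms of any miRNA with a mean of at least 10% of reads at 24 nt, a minimum set after the values were seen. In miR-30e-5p the 24-nt share was 84.8% ± 1.61 and 81.3% ± 2.28 (SD, n = 3 each) and the groups overlapped. In miR-30b-5p, where 22 nt led, that length held 85.5% ± 1.30 and 82.0% ± 2.35, overlapping too. The lengths more frequent in their place differed in part. In miR-30c-5p these were mostly reads 1 base shorter. Some longer reads were also more frequent, with the groups apart. These were 25-nt reads of miR-30c-5p (2.91% ± 0.123 and 3.64% ± 0.576) and 26-nt reads of miR-30e-5p (1.45% ± 0.0745 and 1.74% ± 0.183). The 25-nt reads of miR-30a-5p were rarer, at 4.03% ± 0.180 and 3.61% ± 0.220. In miR-30d-5p, 23-nt reads were 32.9% ± 1.94 untreated and 40.3% ± 9.37 with taurocholate, and the groups overlapped. In miR-30a-5p, 23-nt reads were 18.8% ± 2.36 untreated and 22.2% ± 3.45 with taurocholate, and the groups overlapped. Its 22-nt reads were 5.60% ± 1.04 and 8.84% ± 0.165, its 21-nt reads 3.24% ± 0.630 and 4.13% ± 0.334, and its 20-nt reads 2.57% ± 0.298 and 3.83% ± 0.272. From 20 to 22 nt the groups were apart at each length. This was not particular to miR-30a-5p. Taurocholate libraries were also all higher at 18, 19 and 20 nt in miR-30d-5p, and at 18, 19, 20 and 22 nt in miR-30e-5p. The share of all arms apart at these lengths was not counted. The shares of an arm's lengths are parts of 1 whole, so they are not separate results.

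**Figure D3:**
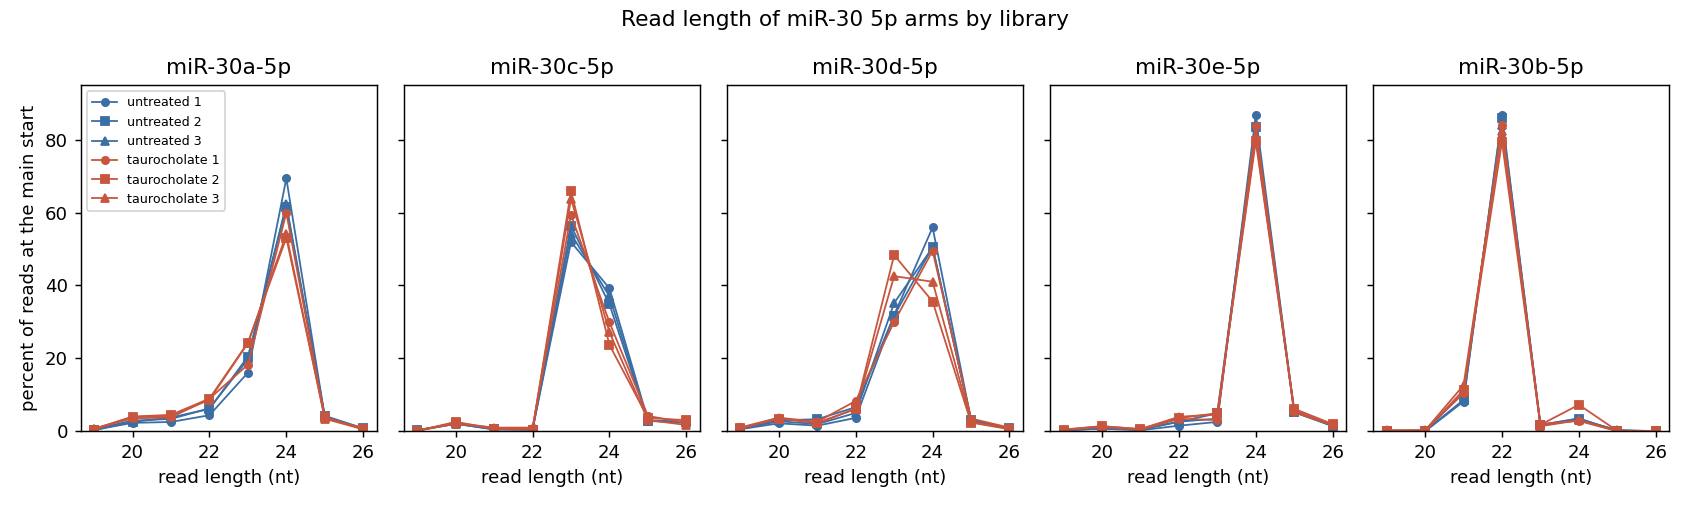
Read length in nt (horizontal axis) against the percent of reads at the main 5′ start (vertical axis) for the 5 miR-30 5p arms; each line is 1 library, blue untreated and red taurocholate. At 24 nt the red lines lie below the blue ones for miR-30a-5p, miR-30c-5p and miR-30d-5p, and in miR-30c-5p they lie above at 23 nt.

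Mean lengths at the main start show the size of this shift. miR-30a-5p averaged 23.59, 23.48 and 23.47 nt in untreated and 23.38, 23.29 and 23.29 nt in taurocholate libraries. The difference was -0.19 nt (SE 0.04, limma p 0.00419, adjusted p 0.0613, exact permutation p 0.1). For miR-30d-5p it was -0.17 nt (SE 0.05, limma p 0.0135, adjusted p 0.0908), for miR-30c-5p -0.10 nt (SE 0.03, limma p 0.00955, adjusted p 0.0831) and for miR-30e-5p -0.06 nt (SE 0.02, limma p 0.0350, adjusted p 0.165). miR-30e-3p was at -0.17 nt (SE 0.07, limma p 0.0623; -0.09 without taurocholate replicate 2) and miR-30a-3p at -0.13 nt (SE 0.06, limma p 0.0815). miR-30b-5p was at -0.01 nt (SE 0.03), and its sign turned without taurocholate replicate 1 or 3. Limma called 0 of 184 arms at an adjusted p of 0.05, with 49 at an unadjusted p under 0.05, 37 of them shorter (20.1% of all arms). With the replicate number as a block it called 12 arms (6.52%), among them miR-30a-5p and miR-30d-5p (limma adjusted p 0.0214 each). Among the 89 arms of at least 1000 reads in each library it called 16 (18%), with miR-30a-5p at an adjusted p of 0.0482.

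Shorter reads with taurocholate were also common outside the family. All 7 miR-30 arms tested had shorter means with taurocholate, with a median of -0.13 nt, and in 5 of 7 the taurocholate libraries were all below the untreated ones, where 21.2% of all arms showed this. Over all 184 arms, 109 were shorter and 75 longer, with a median of -0.02 nt. The mean over all arms, each counted equally, was 21.99, 21.99 and 21.98 nt untreated and 21.96, 21.96 and 21.94 nt with taurocholate. miR-30a-5p ranked 14th of 184 from the most shortened, miR-30d-5p 20th and miR-30b-5p 97th. Among error-free reads the differences were -0.25 nt in miR-30a-5p, -0.22 in miR-30d-5p, -0.14 in miR-30c-5p and -0.08 in miR-30e-5p, each larger in size than over all reads. In miR-30e-3p error-free reads gave the smaller value of -0.04 nt (limma adjusted p 0.720), and in miR-30b-5p -0.0031 nt.

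**Figure D4:**
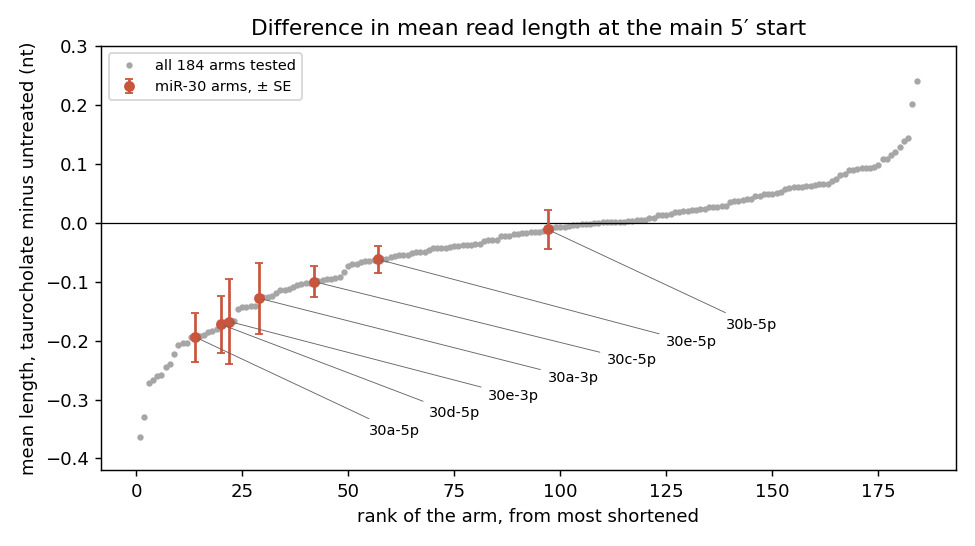
Difference in mean read length at the main 5′ start, taurocholate minus untreated in nt (vertical axis), for 184 arms ranked from the most shortened; grey points are all arms and red points with bars of ± 1 SE are the 7 miR-30 arms. All red points lie below 0, from -0.19 nt for miR-30a-5p to -0.01 nt for miR-30b-5p, within the range of the other arms.

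Many reads ended in a base that does not match the precursor. Of miR-30e-3p reads 49.8% ± 2.85 untreated and 46.9% ± 4.0 with taurocholate had such a last base, mostly a T (33.0% ± 2.85 and 29.4% ± 6.81). In miR-30a-3p it was 50.0% ± 2.93 and 49.4% ± 1.73. In miR-30c-5p it was 39.9% ± 2.81 and 43.3% ± 0.776, again mostly T (22.4% ± 2.10 and 23.9% ± 5.55), and in miR-30b-5p 30.7% ± 0.729 and 34.3% ± 9.70, with T in 3.55% ± 0.569 and 4.23% ± 1.07. All miRNA reads had 27.5% ± 0.687 and 33.0% ± 7.24 (SD, n = 3 each). The wide taurocholate spread came from library 1, where 22.1% of all miRNA reads ended in a mismatched G, against 5.31% in untreated library 1 and 1.2% to 1.89% in the other 4. The family carried the same mark, with 22.0%, 1.62% and 1.84% of miR-30a-5p reads in taurocholate libraries and 26.4%, 1.56% and 2.03% of miR-30e-5p reads. Without taurocholate library 1 the length difference was -0.22 nt in miR-30a-5p, -0.20 in miR-30d-5p, -0.12 in miR-30c-5p and -0.08 in miR-30e-5p.

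In 7 of the 8 miR-30 arms measured, reads ending in a mismatched C were rarer in each taurocholate library than in any untreated one, which was so in 54.7% of all 190 arms. In miR-30a-5p such a C ended 9.13%, 10.0% and 9.37% of reads untreated and 4.52%, 6.25% and 6.27% with taurocholate. In miR-30e-5p the shares were 11.3%, 13.2% and 12.1% against 5.98%, 8.21% and 9.60%, and in miR-30d-5p 7.33%, 8.22% and 7.93% against 3.77%, 4.08% and 4.85%. In miR-30b-5p they were 11.6%, 13.6% and 12.1% against 5.34%, 9.02% and 8.77%, and in miR-30c-5p 4.37%, 5.01% and 5.54% against 2.14%, 2.81% and 3.33%. All miRNA reads together had 9.30%, 11.2% and 10.2% against 5.08%, 8.03% and 7.79%, so the same difference was present beyond the family. What it adds to the lengths above was not tested. The exception in the family was miR-30a-3p, where the groups overlapped. For each of the 5 arms given with values the exact permutation p was 0.1.

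**Figure D5:**
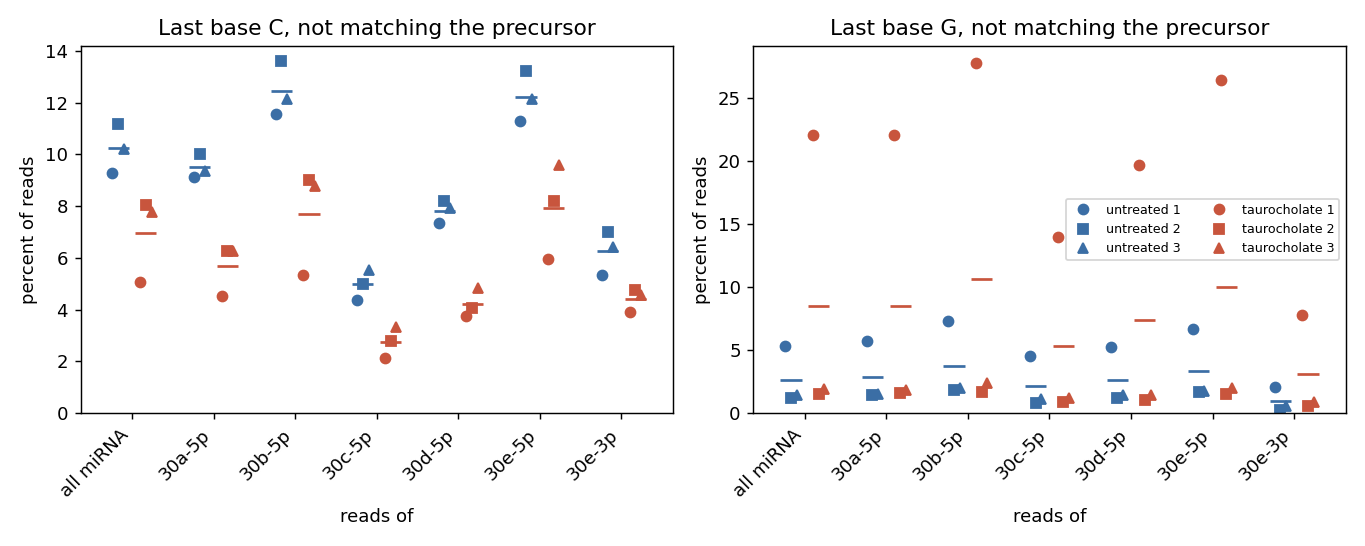
Percent of reads whose last base is a C (left) or a G (right) that does not match the precursor, for all miRNA reads and 6 miR-30 arms; each point is 1 library, blue untreated and red taurocholate, and lines are group means of 3 libraries. On the left the red points of each arm lie below its blue ones, and on the right taurocholate library 1 stands at 7.82% to 27.7% while the others stay at 7.31% or less.

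Of 4825 sequences tested with edgeR 0 were called, where 885 had an unadjusted p under 0.05, 626 of them higher (13%) and 259 lower (5.37%). Of the 264 miR-30 sequences tested, 36 had an unadjusted p under 0.05, 12 of them higher and 24 lower. Among the 5 miR-30 sequences of smallest p, 4 ended in a mismatched C: the 24-nt forms of miR-30a-5p (log2 fold change -0.86, SE 0.18), miR-30e-5p (-0.95, SE 0.21) and miR-30d-5p (-0.86, SE 0.19) and the 22-nt form of miR-30b-5p (-0.95, SE 0.26), each with an edgeR adjusted p of 0.225. Scaled CPM of read sequences, here and below, use the TMM factors of the arms. The edgeR fold changes of sequences use TMM factors set on the sequences themselves. The CPM and the fold change of a sequence are thus scaled differently and differ in size. The C-ended form of miR-30e-5p stood at 531, 735 and 564 scaled CPM untreated and 249, 256 and 329 with taurocholate. The fifth was a 24-nt miR-30e-5p read with a mismatched first base (-0.90, SE 0.26), at 16.3 ± 3.32 and 7.75 ± 1.40 scaled CPM.

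The leading error-free forms of 4 of the 5p arms were also lower in each taurocholate library than in any untreated one in scaled CPM, as were 17.4% of the 4825 sequences. Error-free reads were 50.9% of all miRNA reads in taurocholate library 1 and 62.3% to 65.7% in the other 5 libraries, and the part of this in the values was not tested. The 24-nt miR-30a-5p read printed above stood at 1019, 1022 and 827 scaled CPM untreated and 598, 655 and 641 with taurocholate (log2 fold change -0.41, SE 0.16, edgeR adjusted p 0.253). The 24-nt miR-30e-5p read stood at 2746, 3282 and 2787 against 1816, 1942 and 2025 (-0.42, SE 0.16, edgeR adjusted p 0.246), and the 24-nt miR-30d-5p read at 4199, 4366 and 3284 against 2232, 3137 and 2766 (-0.37, SE 0.17, edgeR adjusted p 0.296). The 22-nt miR-30b-5p read stood at 301 ± 32.4 and 204 ± 42.1 (-0.38, SE 0.22, edgeR adjusted p 0.350). On library totals its groups overlapped, with 781 of 3070227 miRNA reads in untreated library 1 and 1000 of 3637092 in taurocholate library 3. Those of the miR-30a-5p, miR-30e-5p and miR-30d-5p reads stayed apart on library totals. The share of all sequences apart on that scale was not counted. The 23-nt miR-30c-5p read, the annotated form, overlapped between the groups, at 422, 623 and 535 against 568, 550 and 555 (0.27, SE 0.21, edgeR adjusted p 0.444), and its value fell to 0.02 without taurocholate replicate 1 and 0.05 without untreated replicate 1.

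The mir-30c-1 precursor also gave short reads from upstream of its 5p arm. There were 21, 58 and 24 of them in untreated and 32, 38 and 46 in taurocholate libraries, 219 in all, and 67.1% ended on the base just before the 5p arm. They make up nearly all of the 222 reads that fit the 5p side of mir-30c-1 but not of mir-30c-2. The read below is the most abundant, with 130 reads, and capitals mark the 5 bases that the files' reference carries before the RefSeq hairpin.

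mir-30c-1 upstream read, 21 nt: CTGTAaccatgttgtagtgtg

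Of these reads 88.1% began at the first base of the file's reference, so their true start may lie further upstream. The groups overlapped, at 10.0 ± 4.04 and 10.8 ± 1.66 CPM of library totals (SD, n = 3 each). The precursors of miR-30b, miR-30d and the other miR-30c copy had 0 reads ending so far upstream, and mir-30e had 10. For the other miR-30c copy, 0 reads allow up to 3 in all. In mir-30a too few reference bases precede the 5p arm to hold a read of 16 nt, the shortest present, so its 0 reads were fixed in advance. The RefSeq entries used held no hairpin of mir-30b or mir-30d, so the same could not be checked there. In mir-30e another 51 reads began in the loop, 23 to 25 bases after the 5p start, with 5, 10 and 7 in untreated and 11, 8 and 10 in taurocholate libraries.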

How the data were processed

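Per the file headers, the deposited values are counts: each line of a library's precursor file holds an alignment of 1 distinct read sequence, with its number of reads, position, length and mismatches. Reads had been processed with FastQC, cutadapt and Novoalign 2.07.11, per the submitters' processing notes; the build is not given in the sources used here. Per the labels' protocols, total RNA was treated to remove end groups and methyl marks before ligation, and libraries were size-selected on a gel and read single-end on an Illumina NextSeq. Reads were 16 to 28 nt with at most 1 mismatch or gap.

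Each read sequence was counted 1 time per library by its number of reads. Arms were set by the middle of the precursor (length from RefSeq GRCr8 for 360 of 383, from read span for 23). Levels and read sequences were tested with edgeR 4.0.16 (quasi-likelihood, TMM, filterByExpr) in R 4.3.3. Arm ratios (pseudocount 0.5, at least 20 reads per library), log2 odds of the main start and mean lengths (at least 100 reads per library) were tested with limma 3.58.1 (eBayes, trend). All used the 6 libraries with group as the sole term and Benjamini-Hochberg adjustment over all features, calling adjusted p under 0.05. Exact permutation tests were two-sided. The SE of an edgeR fold change was derived from its F statistic. The tests were checked on simulated data.

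The family, lists and tests were chosen with earlier results of these data known; its members were then taken by name. Named were all miR-30 arms and shared groups, the most abundant sequence of arms, the 5 sequences of smallest p at 10 CPM or more, starts of at least 1%, and the 3 most alike arms. Same-numbered libraries deviated together (correlations over 378 arms of 0.29, 0.62 and 0.19 for numbers 1 to 3). Untreated 1 correlated slightly more with taurocholate 3 (0.37). The labels do not say that the numbers pair the samples. The main tests did not pair them, and the replicate block was run as an alternative. If the numbers do mark pairs, the p-values of the main tests ignore them. Alternatives were DESeq2 1.42.0, other scalings, filters and pseudocounts, error-free reads, the block, and leaving out each library. The tRNA files were not used.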

Additional observations from a re-analysis of the deposited data

How the results depend on the processing

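The counts of calls were 0 in all 5 tests, and remained 0 except as follows. The DESeq2 Wald test called 12 of 378 arms, 0 of them miR-30. The replicate block called 2 arm ratios, 0 of them miR-30, and 12 mean lengths, with miR-30a-5p at -0.19 nt and miR-30d-5p at -0.17 nt; it changed no other call. Lengths of arms with at least 1000 reads per library gave 16 calls. Leaving out 1 library gave 0 to 1 calls for arm ratios, lengths and read sequences, and 0 for levels and starts. The cause was not tested.

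All 55 values of the arm ratios and 95 of the named sequences kept their direction. Among levels, 18 values changed sign, all for arms of small difference. miR-30d-3p went to 0.022 with DESeq2 size factors, 0.021 with the DESeq2 Wald test, 0.011 with library totals and 0.11 with no filter on low counts, and miR-30d-5p to 0.013 with no filter. Leaving out 1 library, log2 fold changes ranged from -0.0095 to 0.11 for miR-30a-3p, -0.12 to 0.52 for the 5p-side reads of mir-30c-1 alone (nearly all upstream of the arm), -0.25 to 0.022 for miR-30c-2-3p, -0.15 to 0.12 for miR-30d-3p, -0.22 to 0.095 for miR-30d-5p and -0.32 to 0.0072 for the reads shared by miR-30d-5p and miR-30e-5p. For the log2 odds of the main start, miR-30c-5p went to -0.28 and miR-30d-5p to -0.049 with error-free reads. Leaving out 1 library they ranged from -0.24 to 0.022 for miR-30a-5p, -0.48 to 0.42 for miR-30c-5p, -0.18 to 0.011 for miR-30e-3p and -0.077 to 0.0072 for miR-30e-5p. Mean length of miR-30b-5p ranged from -0.044 to 0.0095 nt.

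Depth limits the 3p arms of miR-30c and miR-30d most, at 90 to 163 reads per library and member, with both miR-30c copies together. By copy, miR-30c-1-3p had 38 to 85 reads per library and miR-30c-2-3p 37 to 66. Assigning shared reads to their best precursors changed no value, since their mismatches are equal.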
